A study of Mus musculus with 7 samples.

Results

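Egr1, Egr2, Egr3, Nr4a1, Nr4a2, Nr4a3, Ier2, Ier3 and Ier5 are immediate-early genes of 3 families, and their RNA was followed in mouse bone-marrow-derived macrophages (BMDMs) in 2 experiments. The members were taken by symbol as 3 named families, with earlier results of these data known, and each symbol was found on 1 row of each deposited table. They are 9 of the 48440 genes of the table for lipopolysaccharide (LPS, an endotoxin of Gram-negative bacteria) and 9 of the 55352 genes of the table for adeno-associated virus (AAV) transduction. BMDMs are macrophages grown in culture from bone marrow cells, here with macrophage colony-stimulating factor (M-CSF) at 20 ng/mL. According to the labels, the LPS experiment used WT BMDMs either without treatment (0 h) or given LPS at 100 ng/mL for 2 h or for 4 h, and each time point is a single library. The AAV experiment used BMDMs exposed to virus for 48 h, 2 samples transduced with AAV-GFP (genotype WT) and 2 transduced with AAV-Shisa3 (genotype Shisa3 overexpression). The methods give wild-type mice as the source of the marrow and a self-complementary vector with the CAG promoter, which is active in most cell types and not only in macrophages. No source used here says whether the samples of a group came from separate mice or cultures, so p-values measure only the spread between these samples, which may be technical.

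Immediate-early genes are transcribed within minutes of a stimulus without new protein synthesis, and their transcripts are usually short-lived. The EGR genes encode zinc-finger transcription factors that bind GC-rich sites, and they are classical targets of the ERK cascade through serum response factor (SRF) at CArG boxes. The NR4A genes encode orphan nuclear receptors that act without a known physiological ligand and respond to CREB at cAMP response elements (CREs). In macrophages, LPS signalling through Toll-like receptor 4 engages ERK, CREB and NF-κB. Ier2 and Ier5 encode related nuclear proteins, and Ier3 (also known as IEX-1) encodes an unrelated short protein that modulates cell survival and is a target of NF-κB.

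RefSeq promoter windows on GRCm38.p6, from 250 bases before to 50 bases after an annotated start, were matched by symbol for 6 of the 9 members (Egr2, Nr4a1, Nr4a2, Nr4a3, Ier3 and Ier5). The set of windows used here had no match by symbol for Egr1, Egr3 and Ier2. The windows were searched on both strands for the CRE core TGACG, the full CRE palindrome TGACGTCA (which holds the core on each strand), the CArG box and the NF-κB site (by name), the AP-1 site TGANTCA, the EGR site GCGNGGGCG and the NR4A monomer site AAAGGTCA. The 3 NR4A promoters are shown because each holds 4 CRE cores in its window. Of 32851 RefSeq windows of 300 bases, 20.8% hold at least 1 such core and 0.231% hold at least 4. Capitals mark the matches, and each run stops at the RefSeq start or at the first annotated exon base, whichever comes first. The Nr4a1 start is an internal one, so that its printed bases lie in an intron of the longer annotated gene. The fourth core of Nr4a3 lies in annotated exon sequence and is not printed.
Nr4a1, chr15:101266596-101266845, plus strand: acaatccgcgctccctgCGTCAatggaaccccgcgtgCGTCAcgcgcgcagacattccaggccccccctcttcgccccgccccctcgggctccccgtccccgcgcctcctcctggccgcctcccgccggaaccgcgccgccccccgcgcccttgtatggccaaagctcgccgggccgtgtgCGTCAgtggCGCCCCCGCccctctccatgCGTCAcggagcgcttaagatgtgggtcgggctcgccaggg
Nr4a2, chr2:57124004-57124253, minus strand: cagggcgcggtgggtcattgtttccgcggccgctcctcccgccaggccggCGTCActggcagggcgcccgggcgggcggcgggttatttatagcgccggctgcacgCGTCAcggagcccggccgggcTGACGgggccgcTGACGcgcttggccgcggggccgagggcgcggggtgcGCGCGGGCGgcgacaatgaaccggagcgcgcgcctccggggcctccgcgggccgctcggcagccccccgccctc
Nr4a3, chr4:48045055-48045152, plus strand: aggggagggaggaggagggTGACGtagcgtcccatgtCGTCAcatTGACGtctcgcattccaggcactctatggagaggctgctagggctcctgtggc

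None of the 3 NR4A windows holds the full palindrome (1.79% of all windows do). In the Nr4a1 and Nr4a2 runs the longest block of capitals is an EGR site (5.55% of all windows hold one), and the Nr4a1 window holds a match to the NF-κB site beyond its printed end. Egr2 and Ier3 are shown for the other arms described above. Egr2 has 5 RefSeq windows, of which 4 hold a CArG box and 3 hold 2 CRE cores. These 3 windows overlap and hold the same CArG box and the same 2 cores, so they are not separate matches. A CArG box is found in 1.63% of all windows. The printed run, which lies in an intron of the longer annotated gene, holds the CArG box between its 2 CRE cores. The Ier3 run holds an NF-κB site, which 4.51% of all windows hold.
Egr2, chr10:67537619-67537868, plus strand: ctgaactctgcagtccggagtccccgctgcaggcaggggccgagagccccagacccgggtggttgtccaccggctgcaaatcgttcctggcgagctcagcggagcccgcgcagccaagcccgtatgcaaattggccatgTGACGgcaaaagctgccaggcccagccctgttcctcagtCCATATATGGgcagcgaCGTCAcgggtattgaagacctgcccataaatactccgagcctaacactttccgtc
Ier3, chr17:35821463-35821683, plus strand: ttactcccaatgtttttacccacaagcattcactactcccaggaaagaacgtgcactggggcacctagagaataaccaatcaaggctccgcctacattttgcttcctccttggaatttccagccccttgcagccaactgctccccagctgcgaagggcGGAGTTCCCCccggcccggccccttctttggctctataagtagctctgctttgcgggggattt

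The AP-1 site (7.81% of all windows) and the NR4A site (1.51%) were found in no window of the 6 members, and the Ier5 window held none of the searched motifs. These matches describe letters in a window and say nothing about binding in these cells.

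The members are spread over 9 chromosomes. In GENCODE M21 on GRCm38, Egr1 (ENSMUSG00000038418.7) lies at chr18:34859823-34864984, Egr2 (ENSMUSG00000037868.15) at chr10:67535475-67542188 and Egr3 (ENSMUSG00000033730.4) at chr14:70077203-70082614, each on the plus strand. Nr4a1 (ENSMUSG00000023034.7) lies at chr15:101254269-101274795 on the plus strand, Nr4a2 (ENSMUSG00000026826.13) at chr2:57106830-57124003 on the minus strand and Nr4a3 (ENSMUSG00000028341.9) at chr4:48045153-48086447 on the plus strand. Ier2 (ENSMUSG00000053560.4) at chr8:84661331-84662852 and Ier5 (ENSMUSG00000056708.5) at chr1:155096361-155099636 are on the minus strand and consist of 1 exon each, and Ier3 (ENSMUSG00000003541.6) lies at chr17:35821684-35822923 on the plus strand with 2 exons. The union of exons ranges from 1131 bases for Ier3 to 5987 bases for Nr4a3. No other annotated gene overlaps any of the 9 in this annotation. The labels name the older build mm9. Of the expression values below, only those per kilobase of exon and the fit with the length trend removed use exon lengths from GENCODE M21.

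The depth differed between the LPS libraries. The authors deposited read counts divided by a factor for each library, here called normalised reads, and whole reads could be recovered for 100% of the values (within 0.01 read). Library totals were 15588502 reads (0 h), 7263258 reads (2 h) and 32659392 reads (4 h), and members with few reads are least precise at 2 h. The AAV table holds values that sum to between 999778 and 999818 per sample and are read as TPM, a unit scaled for transcript length and library size, with unknown depth. Shisa3, the gene carried by the virus, was at 7.88 and 10.85 TPM with AAV-GFP and at 12.31 and 17.81 TPM with AAV-Shisa3, with an adjusted p of 0.138 in limma, so the groups did not overlap but the targeted gene itself did not pass the test. Macrophage markers were high in every AAV sample (8 of 8 tested, summed 34054 to 37144 TPM) and in the LPS libraries (7 of 8 with a single row, summed 297560 to 317688 normalised reads), and the T- and B-cell markers Cd3e and Cd3d were listed at 0 in all 4 AAV samples.

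LPS was compared first, to ask which members were high in stimulated cells. After 2 h, 6 of the 9 members were at least 2-fold higher than at 0 h (Egr3, Nr4a1, Nr4a3, Ier2, Ier3 and Ier5) and none was at least 2-fold lower, on log2(normalised reads + 1). Among the 17854 genes that averaged 1 or more, 20.5% were at least 2-fold higher and 24.7% at least 2-fold lower. After 4 h, 6 of the 9 were again at least 2-fold higher than at 0 h (Egr1, Egr3, Nr4a2, Nr4a3, Ier2 and Ier3) and none was lower, against 22.2% and 23.6% of all genes. Between 2 h and 4 h, Nr4a2 was at least 2-fold higher and Nr4a1 and Ier5 were at least 2-fold lower, against 17.9% and 15.2% of all genes. With 1 library per time point there is no replicate check and no test, and every interval below is a 95% interval that covers counting error only. All 9 members passed the filter. No library was taken between 0 h and 2 h, so a rise and fall within that time would not be seen for any gene.

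Nr4a3 had the largest fold of the 9 members at both times. It was at 3.86 normalised reads at 0 h (6 reads), 179 at 2 h (82 reads) and 98.9 at 4 h (182 reads). This is 46.4-fold higher at 2 h (20.4 to 130) and 25.6-fold higher at 4 h (11.5 to 70.7), and its log2 fold change at 2 h ranked 139 from the top among the 17854 genes. Per 1000000 reads of the library (RPM), Nr4a3 was at 0.385 RPM at 0 h, with a Wilson interval of 0.176 to 0.840. At 2 h it was at 11.3 RPM (interval 9.10 to 14.0) and at 4 h at 5.57 RPM (interval 4.82 to 6.44), and the 3 intervals do not overlap.

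The other NR4A receptors had smaller folds than Nr4a3. Nr4a1 (Nur77) was at 57.3 normalised reads at 0 h (89 reads), 166 at 2 h (76 reads) and 75.5 at 4 h (139 reads). Its level was 2.90-fold higher at 2 h (2.11 to 3.98) and at 4 h was 0.455 of that at 2 h (0.342 to 0.610). Against 0 h, Nr4a1 at 4 h was 1.32-fold higher as deposited (1.00 to 1.74) but 0.745 of its 0 h level with reads scaled to library totals (0.567 to 0.984), so its direction at 4 h rests on the scaling. Nr4a2 (Nurr1) was at 8.36 normalised reads at 0 h (13 reads), 6.55 at 2 h (3 reads) and 31.0 at 4 h (57 reads). Nr4a2 at 2 h cannot be told from 0 h at this depth (0.783-fold, 0.143 to 2.85), and it was 3.70-fold higher at 4 h than at 0 h (2.00 to 7.38). The highest value was at 2 h for Nr4a1 and Nr4a3 and at 4 h for Nr4a2.

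**Figure D1:**
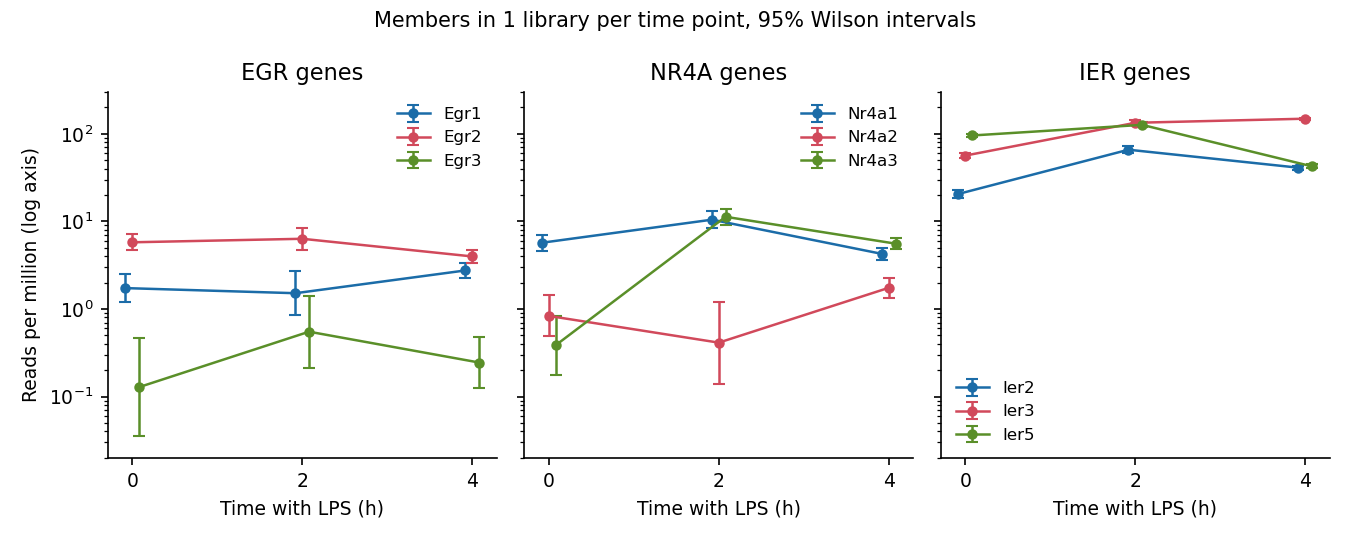
RPM, reads scaled to the library total (log axis), of the 9 members in the libraries at 0 h, 2 h and 4 h of LPS, 1 library per time point, with bars for 95% Wilson intervals, which cover counting error only. Nr4a3 stands out with 0.385, 11.3 and 5.57 RPM, and this scale by library totals places the 2 h and 4 h points lower, relative to 0 h, than the deposited normalised reads do.

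The IER genes held the highest levels of the 9 members. Ier2 was at 206 normalised reads at 0 h (321 reads), 1044 at 2 h (478 reads) and 728 at 4 h (1340 reads), which is 5.05-fold higher at 2 h (4.38 to 5.84) and 3.53-fold higher at 4 h (3.12 to 4.00). Ier3 was at 565 at 0 h (879 reads), 2118 at 2 h (970 reads) and 2640 at 4 h (4858 reads), which is 3.75-fold (3.42 to 4.11) and 4.67-fold higher (4.34 to 5.02). Ier2 was therefore highest at 2 h and Ier3 at 4 h, where Ier3 was 1.25-fold above its 2 h value (1.16 to 1.34). Ier5 was at 959 at 0 h (1491 reads), 2007 at 2 h (919 reads) and 754 at 4 h (1387 reads). It was 2.09-fold higher at 2 h (1.93 to 2.27), a fold of 1.32 with library totals (1.22 to 1.44), and at 4 h it was at 0.376 of its 2 h value (0.345 to 0.409). At 4 h against 0 h, Ier5 was lower as deposited (log2 fold change -0.35), lower with library totals (-1.17) and about level when each library was centred on its median (0.02).

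The EGR genes had smaller folds at 2 h and 4 h, or few reads. Egr1, the founding member of the family, was at 17.4 normalised reads at 0 h (27 reads), 24.0 at 2 h (11 reads) and 48.9 at 4 h (90 reads). At 2 h its fold of 1.38 (0.619 to 2.88) includes no change, and its log2 value of 0.45 became -0.19 with library totals. Egr1 was 2.82-fold higher at 4 h (1.81 to 4.50), and this fold was 1.59 with library totals (1.03 to 2.55). Egr2 (Krox20) was at 57.9 at 0 h (90 reads), 100 at 2 h (46 reads) and 70.6 at 4 h (130 reads). Egr2 was 1.74-fold higher at 2 h (1.19 to 2.50) as deposited, short of 2-fold. The same fold was 1.10 with library totals (0.752 to 1.58), an interval that includes no change, and past 2-fold with each library centred on its median (1.10 on the log2 scale). At 4 h the log2 fold change of Egr2, 0.28 as deposited, became -0.53 with library totals. Egr3 was counted with 2, 4 and 8 reads at 0 h, 2 h and 4 h, for 1.29, 8.73 and 4.35 normalised reads. Its folds of 6.79 at 2 h (0.973 to 75.1) and 3.38 at 4 h (0.674 to 32.7) both have intervals that include no change, so its place among the members past 2-fold is not resolved at this depth.

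**Figure D2:**
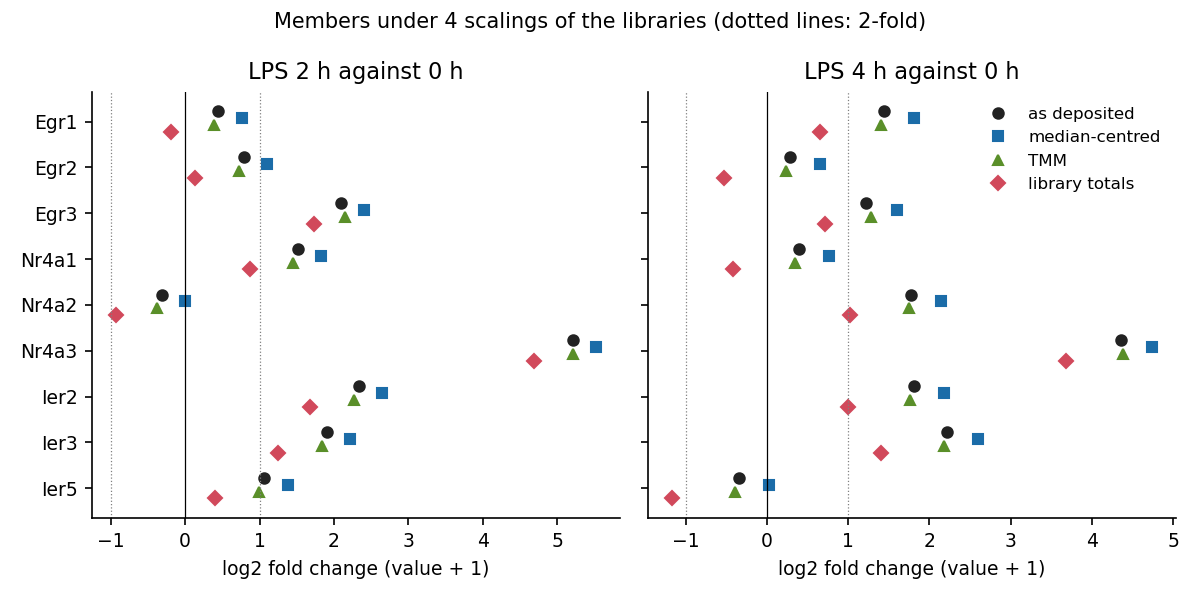
Log2 fold changes (log2 of value + 1) of the 9 members at 2 h and 4 h of LPS against 0 h, 1 library per time point, under 4 scalings of the libraries, with dotted lines at 2-fold. Library totals (diamonds) give the lowest value and median centring (squares) the highest for each member in both panels, and Egr3, Nr4a3, Ier2 and Ier3 stay above 0 under every scaling shown.

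The choice of scaling moved all genes together. Over all genes, the median log2 fold change at 2 h was -0.05 as deposited, -0.12 with TMM factors, 0.26 with each library centred on its median and -0.70 with library totals. The members' median was 1.52, 1.46, 1.83 and 0.87 under the same scalings, which by construction shift members and other genes nearly alike, so that a similar gap between the medians under each is no sign of stability. At 4 h the median of all genes was -0.04, -0.09, 0.33 and -0.82, and that of the members 1.44, 1.41, 1.81 and 0.71. With library totals the fold at 2 h was 29.3 for Nr4a3, 3.20 for Ier2, 2.37 for Ier3, 1.83 for Nr4a1 and 1.32 for Ier5, and at 4 h it was 14.5 for Nr4a3, 2.64 for Ier3 and 1.99 for Ier2. With TMM factors Ier5 at 2 h was just under 2-fold, which left 5 members past it. With centring, Egr2 was added and 7 members were at least 2-fold higher at 2 h. With library totals, 4 members were at least 2-fold higher at 2 h (Egr3, Nr4a3, Ier2 and Ier3), and at 4 h 3 were higher (Nr4a2, Nr4a3 and Ier3) and Ier5 was lower. Of all genes past 2-fold, the share that was higher was 45.4% at 2 h and 48.5% at 4 h as deposited, 58.2% and 63.5% with centring, and 25.4% and 23.8% with library totals.

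Levels of different genes were compared only per kilobase of exon. At 0 h the order was Ier3 (500 normalised reads per kb), Ier5 (293), Ier2 (136), Egr2 (17.0), Nr4a1 (16.3), Egr1 (3.87), Nr4a2 (2.06), Nr4a3 (0.645) and Egr3 (0.292). Egr2 and Nr4a1 were neighbours that rested on 90 and 89 reads and cannot be separated at this depth. The same holds for Nr4a3 and Egr3, on 6 and 2 reads. At 2 h the order of the IER genes was Ier3 (1873 normalised reads per kb), Ier2 (686) and Ier5 (613). Ier2 and Ier5 thus changed places, but at 2 h they were close, on 478 and 919 reads in 1 library. Nr4a3 (29.9) and Egr2 (29.6) were then nearly level, and Nr4a1 (47.3) was above both. At 4 h Egr2 (20.8) and Nr4a1 (21.5) were again neighbours, with Nr4a3 at 16.5.

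AAV-Shisa3 was then compared with AAV-GFP, to ask which members differed when Shisa3 was delivered without LPS. Of the 9 members, 6 had a mean of at least 1 TPM and entered limma's test across 11218 genes, and 2 of them rose (Nr4a1 and Ier2) while none fell, at a Benjamini-Hochberg adjusted p under 0.05. Among all genes tested, 2.23% rose and 4.10% fell. Nr4a1, Ier2 and Egr1 were higher in each AAV-Shisa3 sample than in either AAV-GFP sample, Ier5 was lower in each, and in Egr2 and Ier3 the groups overlapped. Over all genes tested, 18.2% lay entirely higher with AAV-Shisa3 in this way and 41.2% entirely lower. The median log2 fold change of the 6 members was 0.48 on log2(TPM + 1), against -0.10 for all genes tested. Of the genes called, 35.2% were higher, and this share was 64.1% after median centring of each sample, which moved the median of all genes to 0.01 and added Egr1 to the members called higher. In bulk RNA, more transcripts per cell and more cells that express a gene cannot be told apart.

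Nr4a1 was at 1.79 and 2.62 TPM with AAV-GFP and at 6.08 and 5.02 TPM with AAV-Shisa3. Both transduced samples carrying Shisa3 were thus above both controls, by 2.52-fold between the means. Its log2 fold change was 1.04 (SE 0.20, adjusted p = 0.0412), which ranked 172 by size among the 11218 genes. Ier2 was at 22.71 and 25.25 TPM with AAV-GFP and at 36.17 and 42.71 TPM with AAV-Shisa3. The groups again stood apart, with means 1.64-fold apart and a log2 fold change of 0.69 (SE 0.12, adjusted p = 0.0338). Neither call was kept when any 1 of the 4 samples was left out, in which case no member was called, nor without the filter on low values or without limma's variance trend. Over all alternatives the adjusted p ranged from 0.0241 to 0.171 for Nr4a1 and from 0.0183 to 0.168 for Ier2, while the log2 fold change stayed between 0.85 and 1.31 for Nr4a1 and between 0.58 and 0.81 for Ier2.

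Egr1 and Ier5 lay just outside the threshold in opposite directions. Egr1 was at 2.53 and 2.28 TPM with AAV-GFP and at 4.49 and 4.81 TPM with AAV-Shisa3, a ratio of means of 1.93. Its log2 fold change was 0.73 (SE 0.15) with an adjusted p of 0.0517, which ranged from 0.0311 to 0.203 over the alternatives and was 0.0414 after median centring. Ier5 was at 62.68 and 60.36 TPM with AAV-GFP and at 45.6 and 48.05 TPM with AAV-Shisa3, a ratio of means of 0.761. Its log2 fold change was -0.39 (SE 0.082) with an adjusted p of 0.0517 in limma, and the range over the alternatives was 0.0412 to 0.194. After median centring Ier5 was at -0.27 with an adjusted p of 0.124. Its 4 values are close within each group, and it is the only 1 of the 6 members tested that was lower with AAV-Shisa3.

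Egr2 was at 2.14 and 2.41 TPM with AAV-GFP and at 2.26 and 3.81 TPM with AAV-Shisa3 (log2 fold change 0.28, SE 0.23, adjusted p = 0.476 in limma), and a single AAV-Shisa3 sample carried the difference. Ier3 was at 97 and 113.77 TPM with AAV-GFP and at 111.31 and 133.84 TPM with AAV-Shisa3 (0.21, SE 0.12, adjusted p = 0.309 in limma). The lower AAV-Shisa3 value of Ier3 was below the higher AAV-GFP value. The 3 members under the filter were not tested. Egr3 was at 0.10 and 0.09 TPM with AAV-GFP and at 0.15 and 0.11 TPM with AAV-Shisa3. Nr4a2 was at 0.81 and 0.64 TPM and at 0.98 and 0.86 TPM, and Nr4a3 at 0.32 and 0.66 TPM and at 0.23 and 0.33 TPM. Nr4a3, the member with the largest fold after LPS, was thus under 1 TPM in all 4 AAV samples.

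**Figure D3:**
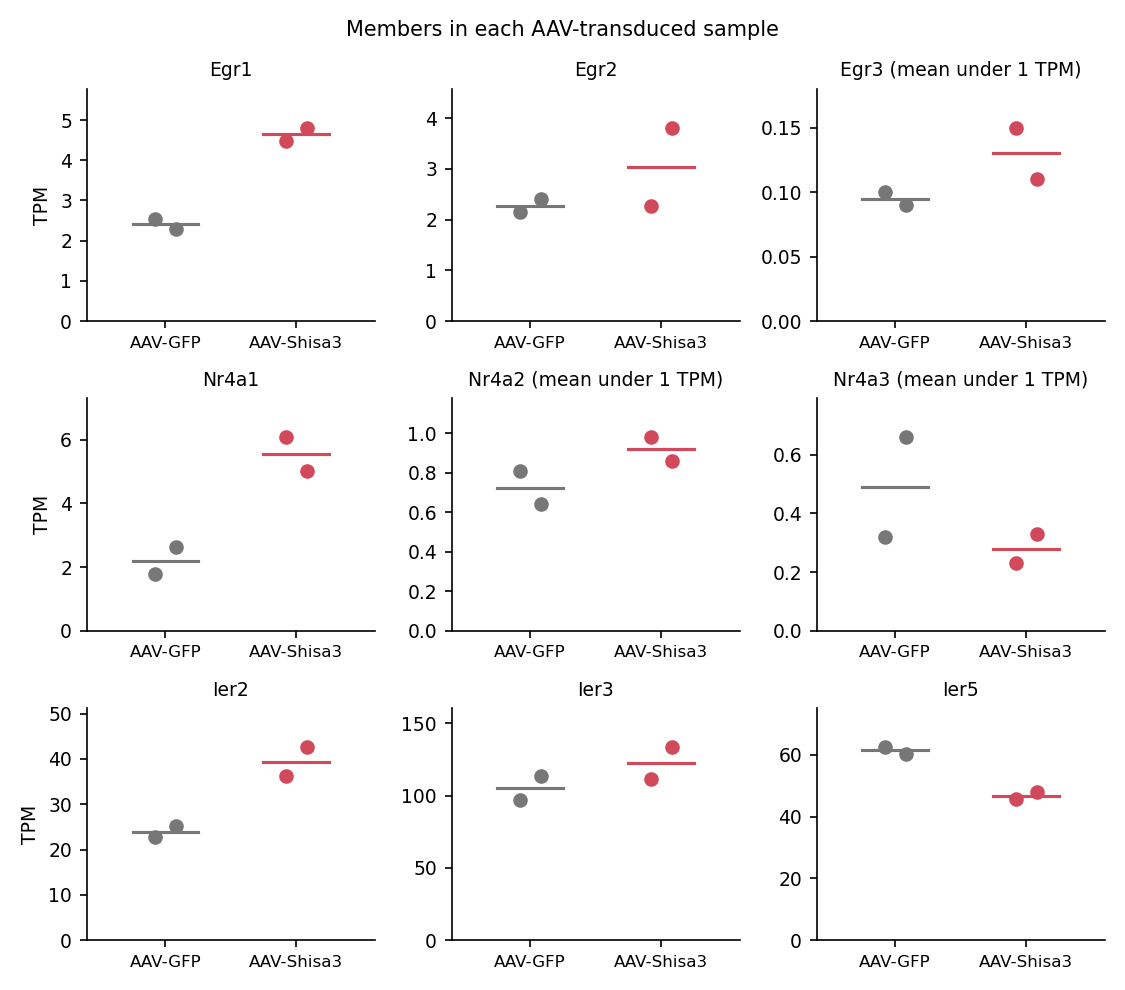
TPM of the 9 members in each AAV-transduced sample (points) with the mean of the 2 samples per group (lines), each panel with its own axis from 0. The AAV-Shisa3 points lie above the AAV-GFP points for Nr4a1 (5.02 and 6.08 against 1.79 and 2.62 TPM), Ier2, Egr1 and the untested Egr3 and Nr4a2, and below them for Ier5 (45.6 and 48.05 against 60.36 and 62.68 TPM).

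TPM is already per length, so the members' levels can be set side by side. The mean over the 4 samples was 114 TPM for Ier3 (percentile 88.2 of the genes tested), 54.2 TPM for Ier5 (77.1) and 31.7 TPM for Ier2 (66.4), with no overlap between the samples of these 3 genes. Nr4a1 (3.88 TPM, percentile 20.1), Egr1 (3.53 TPM, 18.7) and Egr2 (2.66 TPM, 14.4) followed, ahead of Nr4a2 (0.823 TPM), Nr4a3 (0.385 TPM) and Egr3 (0.113 TPM). With AAV-GFP the values of Nr4a1, Egr1 and Egr2 overlapped, and with AAV-Shisa3 those of Nr4a1 lay above those of Egr1, which lay above those of Egr2. Ier3 was the highest and Egr3 the lowest of the 9 both here and in the LPS library at 0 h. In that library Egr3 and Nr4a3 rest on 2 and 6 reads, so which of them was lowest is not resolved.

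Markers of another cell type moved with the same comparison. Of the neutrophil markers, 7 of 8 were tested, of which Retnlg passed the filter on low values only through its AAV-Shisa3 samples. The other 6 were each higher in both AAV-Shisa3 samples than in either AAV-GFP sample, beside 18.2% of all genes tested. Among them, the antimicrobial peptide gene Camp passed the test (adjusted p = 0.0422 in limma), beside 2.23% of all genes tested that rose. The summed level of the list was 514 to 545 TPM with AAV-GFP and 599 to 968 TPM with AAV-Shisa3, while Ly6g, a surface marker of mature neutrophils, was at 0.11 TPM in both AAV-GFP samples and at 0.29 and 0.10 TPM with AAV-Shisa3. The part of these markers in the values of Nr4a1 and Ier2 was not tested. The 4 proliferation markers summed to 39.0 and 38.9 TPM with AAV-GFP and to 62.1 and 34.7 TPM with AAV-Shisa3, and 0 of them were called (all unadjusted p-values over 0.05).

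Upstream genes, partners and other immediate-early genes were described next as lists. Lists were written from general knowledge with results of these data known, and of 59 listed genes 55 were tested, of which 5 rose and 2 fell, where 2.23% of all genes tested rose and 4.10% fell. Among the corepressors and relative of the EGR proteins (Egr4, Nab1 and Nab2), 2 were tested and none was called. Nab2, an EGR-induced corepressor of EGR proteins, was at 32.16 and 39.81 TPM with AAV-GFP and at 46.4 and 56.56 TPM with AAV-Shisa3 (log2 fold change 0.51, adjusted p = 0.0947 in limma), and Egr4 was listed at 0. Among the retinoid X receptors, partners of Nr4a1 and Nr4a2, 2 of 3 were tested and none was called, and Rxra had a log2 fold change of -0.49 (adjusted p = 0.121 in limma). Ier5l, a relative of Ier5, was under the filter.

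Of SRF and its cofactors, 6 of 6 were tested and 1 fell. It was Mrtfa, an actin-regulated coactivator of SRF, at 30.45 and 33.26 TPM with AAV-GFP and at 20.18 and 19.51 TPM with AAV-Shisa3 (log2 fold change -0.66, adjusted p = 0.0266 in limma). The groups did not overlap in 4 of the 6, each lower with AAV-Shisa3, as in 41.2% of all genes tested. Of the ERK cascade and CREB arm, 14 of 14 were tested and 1 fell, Creb1, which encodes CREB itself, at 29.25 and 25.81 TPM with AAV-GFP against 18.99 and 15.67 TPM with AAV-Shisa3 (-0.64 on the log2 scale, adjusted p = 0.0476 in limma). The call of Creb1 was lost with each sample centred on its median (adjusted p = 0.0916 in limma) and with the length trend removed (0.0923), and its adjusted p ranged from 0.0230 to 0.196 over the alternatives. The log2 fold change of Creb1 was -0.53 with centring and -0.56 with the length trend removed. Mrtfa passed under both settings (adjusted p = 0.0357 and 0.0262 in limma). The groups did not overlap in 3 of the 14 that were higher and in 8 that were lower, where 18.2% and 41.2% of all genes tested did so, and nothing particular to these lists is read from such counts.

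Of 32 other immediate-early genes, 31 were tested, 5 rose and none fell, beside 2.23% and 4.10% of all genes tested. Their median log2 fold change was 0.29, and the groups did not overlap in 18 genes that were higher with AAV-Shisa3 and in 3 that were lower, beside 18.2% and 41.2% of all genes tested. Ccn1 passed the filter only through its AAV-Shisa3 samples, and without it 17 of 30 genes were higher. The AP-1 subunit Fosl1 had the largest change among those called (log2 fold change 1.19, adjusted p = 0.0292 in limma), and was at 1.73 and 1.61 TPM with AAV-GFP and at 4.4 and 5.88 TPM with AAV-Shisa3. Zfp36, which encodes the mRNA-destabilising protein tristetraprolin, was at 155.56 and 157.02 TPM with AAV-GFP and at 261.59 and 242 TPM with AAV-Shisa3 (0.68, adjusted p = 0.0178). Fos, another AP-1 subunit, was at 48.64 and 52.58 TPM with AAV-GFP and at 82.29 and 80.35 TPM with AAV-Shisa3 (0.67, adjusted p = 0.0206). The other genes called, named here after their values were seen, were Junb (0.55) and the MAP kinase phosphatase gene Dusp1 (0.41). The call of Dusp1 was lost with the length trend removed (log2 fold change 0.39, adjusted p = 0.0546 in limma). It was kept with each sample centred on its median (0.53, adjusted p = 0.0330 in limma). Without any 1 sample, none of the 55 listed genes was called.

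In the LPS libraries, 23 of the 32 other immediate-early genes were at least 2-fold higher at 2 h and 5 were at least 2-fold lower, with a median log2 fold change of 2.57. The shares over all genes were 20.5% and 24.7%. At 4 h, 23 were higher and 4 lower, with a median of 2.43, and the shares over all genes were 22.2% and 23.6%. The 23 at 2 h include Fosb (1 read at 0 h and 2 reads at 2 h) and Fosl1 (0 and 1 reads), named after their values were seen. Both passed the filter on low values only through the LPS-treated libraries. Fosl1, with 8 reads at 4 h, is also among the 23 at 4 h. Ptgs2, which encodes the prostaglandin synthase COX-2, had the largest log2 fold change at 2 h (9.13, from 38 to 6518 reads), followed by the phosphatase gene Dusp2 (8.86, from 34 to 4855 reads). The lower genes at 2 h, named after their values were seen, were Rgs2 (-4.13), Klf10 (-3.40), Sik1 (-2.78), Ccn1 (-1.77) and Klf4 (-1.08). The members' median of 1.52 at 2 h lay between that of this list and that of all genes. Egr4 had a log2 fold change of 2.92 at 2 h, which rests on 0, 3 and 0 reads at 0 h, 2 h and 4 h. Nab1 and Nab2 had log2 fold changes of 0.69 and 0.73 at 2 h and of 1.66 and 1.79 at 4 h. Rxra was at -1.39 at 2 h and -3.63 at 4 h. No gene of the SRF list reached 2-fold at 2 h, where Srf was at 0.99 and Mrtfa at -0.59. Of the ERK and CREB list 3 of 14 were at least 2-fold higher at 2 h, a share near the 20.5% of all genes. Its largest values were those of Map3k8 (2.42), the kinase that feeds Toll-like receptor signals into ERK, and Rps6ka4 (1.57), which encodes the CREB kinase MSK2. The summed neutrophil markers were 3932 normalised reads at 0 h, 8001 at 2 h and 5731 at 4 h, and their part in these values was not tested.

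Set side by side, the experiments gave the members different orders. At 2 h of LPS the log2 fold changes were 2.33 for Ier2, 1.90 for Ier3, 1.52 for Nr4a1, 1.06 for Ier5, 0.78 for Egr2 and 0.45 for Egr1. With AAV-Shisa3 they were 1.04 for Nr4a1, 0.73 for Egr1, 0.69 for Ier2, 0.28 for Egr2, 0.21 for Ier3 and -0.39 for Ier5. Ier5 was 2.09-fold higher at 2 h of LPS, at 0.786 of its 0 h level at 4 h and at 0.761 of the control with AAV-Shisa3, and Ier3 was 3.75-fold higher with LPS and overlapped between the AAV groups. Fos was at 298, 164 and 610 normalised reads at 0 h, 2 h and 4 h of LPS, so that it was below its 0 h level at 2 h and above it at 4 h, and it rose with AAV-Shisa3. The experiments differ in unit, duration and number of samples, and the difference between them was not tested.

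**Figure D4:**
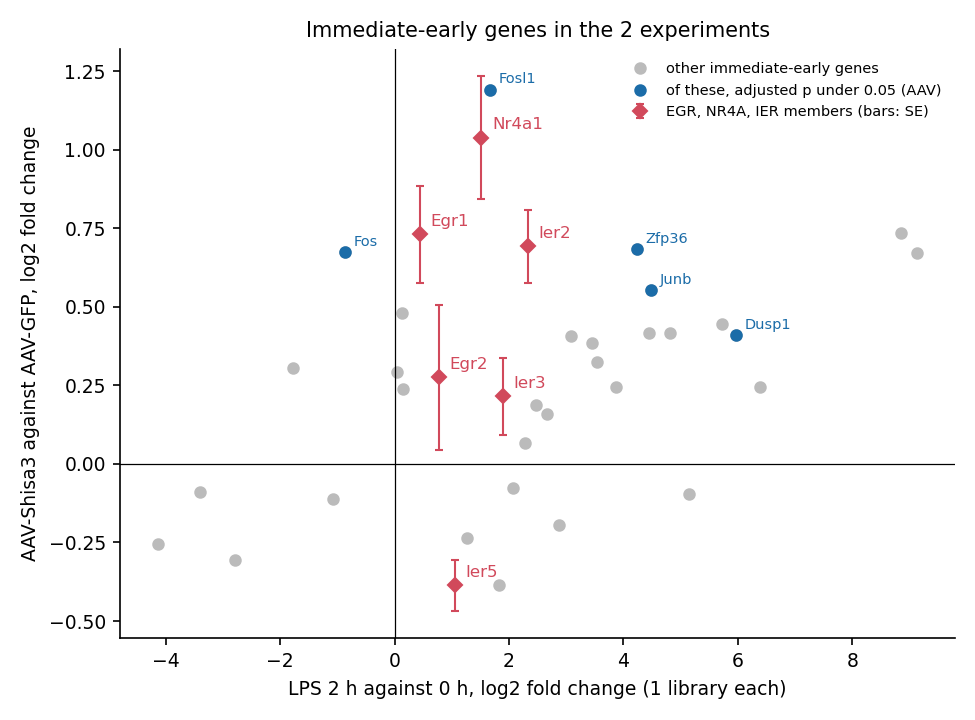
Log2 fold change at 2 h of LPS against 0 h (x axis, 1 library each) and with AAV-Shisa3 against AAV-GFP (y axis, 2 samples each) for the 6 members tested in the AAV experiment (diamonds, bars for the limma SE on the y axis) and 31 other immediate-early genes (circles, the 5 with an adjusted p under 0.05 in colour and named). Nr4a1, Egr1, Ier2, Egr2 and Ier3 have positive values on both axes, and Ier5 is positive with LPS (1.06) and negative with AAV-Shisa3 (-0.39).

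In each family the member with the highest mean TPM in the AAV experiment was taken. The genes whose log2 fold changes were nearest to those of this member were found over 3 differences (2 h and 4 h of LPS against 0 h, and AAV-Shisa3 against AAV-GFP) among 10532 genes that passed both filters. For Nr4a1 the nearest genes were Fhit (Euclidean distance 0.366), Ngp (0.381), a neutrophil granule protein gene, and Nfkbid (0.473), which encodes an atypical inhibitor of NF-κB. For Egr1 they were Hipk2 (0.222), Ago3 (0.295) and Tmem170b (0.312). For Ier3 they were Rabgef1 (0.0505), Ifnar1 (0.114) and Gypc (0.131), so its nearest neighbours were closer than those of the other families. The LPS comparisons share the 0 h library, and no function is read from these distances.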

How the data were processed

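RNA was sequenced from BMDMs in 2 experiments, LPS (3 libraries) and AAV (2 samples per group). For LPS the authors deposited a signal per gene, a read count divided by a factor per library, from which reads were recovered. For AAV the authors deposited values read as TPM from their sums. The labels name the build mm9, and the aligner, counter and annotation are not given in the sources used here. Identifiers matched GENCODE M21 for 99.2% of the LPS table and symbols for 96.5% of the AAV table. Sequences are from RefSeq (GRCm38.p6).

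The members and lists were chosen with earlier results of these data known. AAV values were tested with limma 3.58.1 (eBayes with a variance trend, R 4.3.3) on log2(TPM + 1). Genes entered the test if they averaged 1 TPM or more, and calls were made at a Benjamini-Hochberg adjusted p under 0.05. An exact permutation test of 2 against 2 cannot go below 0.333. Log2 fold changes understate changes of low genes. LPS folds used log2(value + 1), with exact conditional binomial intervals for ratios of reads and Wilson intervals for shares, from Python 3.11.15, scipy 1.17.1, numpy 2.4.6 and pandas 2.3.3; TMM factors came from edgeR 4.0.16 and figures from matplotlib 3.10.9. The test was checked on simulated data. Named genes were the 9 members, up to 3 genes per list with the largest change among those called (or the smallest p) for AAV, up to 2 per list with the largest change at 2 h for LPS, and the 3 nearest genes per family. Nab1, and the genes named after their values were seen, lie outside this rule. Alternatives were the fit without the trend, median centring, other filters and pseudocounts, the replicate number as a block, leaving out each sample, and other scalings of the LPS reads. A fit with the transcript-length trend taken out (loess, span 0.4) was added after seeing the data. Every sample column was used.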

Additional observations from a re-analysis of the deposited data

How the results depend on the processing

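For AAV-Shisa3 against AAV-GFP, limma called 2 members, 7 listed genes and 710 of all genes (250 higher and 460 lower). Without the variance trend it called 0 members, 0 listed genes and 5 of all genes, and with no filter on low values 0 members, 0 listed genes and 0 of all genes, where 1118 higher and 2411 lower genes had an unadjusted p under 0.05. Leaving out 1 sample gave 0 members and 0 listed genes in each case and 0 to 42 of all genes, with a lone sample assumed to vary like the other group. At least 1 TPM in every sample gave 4 members (Nr4a1, Ier2 and Egr1 higher, Ier5 lower), as did removal of the length trend (chosen after seeing the data). With each sample centred on its median, 64.1% of the called genes were higher, against 35.2%. Of the listed genes, 7 were higher and 1 lower with this centring, and 4 were higher and 1 lower with the length trend removed. The main fit gave 5 higher and 2 lower. With the replicate number as a block, 4 members, 14 listed genes and 1275 of all genes were called. Nothing in the labels says that a number pairs samples, and the deviations of same-numbered samples correlated at 0.188 in this 2-by-2 design. The log2 fold change of Egr2 was -0.0054 without AAV-Shisa3 replicate 2, and leaving out each sample gave -0.0054 to 0.56. Of 66 member values under the alternatives, 46 kept their direction and side of the threshold, 12 fell short of it, 7 passed it and 1 reversed. The causes were not tested. Of the LPS member values, 20 moved beyond their counting interval, each under median centring or library totals, while the filters on low values cannot change a fold by construction, and 5 members passed 2-fold between 2 h and 4 h with library totals, against 3 as deposited. Depth limits Egr3, Nr4a2 and Egr1 at 2 h of LPS, which rest on 4, 3 and 11 reads.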

Other observations

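The 3 members under the filter could be tested when no filter was applied, over 20300 genes. Their log2 fold changes with AAV-Shisa3 were 0.05 for Egr3, 0.16 for Nr4a2 and -0.21 for Nr4a3, with adjusted p-values in limma of 0.643, 0.580 and 0.561, and no gene was called in that fit.

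At 4 h of LPS, 4 of the 14 genes of the ERK and CREB list were at least 2-fold higher than at 0 h and 2 at least 2-fold lower, where 22.2% and 23.6% of all genes were, and nothing particular to the list is read from these counts. The 6 genes are named after their values were seen. Map2k1, which encodes the kinase directly above ERK, had a log2 fold change of 2.53, Map3k8 of 2.39, Rps6ka3 of 2.29 and Rps6ka4 of 1.73, and Rps6ka1 of -1.85 and Rps6ka5 of -1.59. Among the NR4A partners, Rxra was at 1434, 548 and 115 normalised reads at 0 h, 2 h and 4 h.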
